A study of Homo sapiens with 9 samples.

Results

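Transcripts of 10 genes for growth factor receptors and their ligands were measured in 3 human kidney cell lines. The genes were the epidermal growth factor (EGF) receptor family members *EGFR*, *ERBB2* and *ERBB3*, the EGF-family ligands *TGFA*, *AREG*, *EREG* and *HBEGF*, the hepatocyte growth factor receptor *MET*, and the receptor *AXL* with its ligand *GAS6*. They were picked by name, with earlier results of these data known. Each matched 1 NCBI gene ID among the 28395 genes of the count table. All 10 averaged 50 counts or more per library and were among the 12695 genes tested. HK2 is a line derived from normal proximal tubule epithelium and immortalised in culture, and 786-O a line from a primary clear cell renal cell carcinoma (ccRCC). The metastatic line is a derivative of 786-O taken from lung metastases grown after injection in vivo. Its name in the sample labels and the plots ends in M1A. No line received a treatment, and all were kept stably in Plasmax, a medium modelled on the composition of human serum. There were 3 RNA-seq libraries of each line, and each condition rested on 1 cell line. Replicates were dishes of the same line, so p-values measure the spread between these dishes.

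EGF-family ligands are made as membrane proteins and are cut from the cell surface by metalloproteases. TGF-alpha, amphiregulin, epiregulin and HB-EGF bind EGFR, which pairs with itself or with ERBB2, a receptor with no ligand of its own, or ERBB3, whose kinase is weak and which binds neuregulins. The receptors then signal through RAS and ERK and through PI3K. MET is the receptor of hepatocyte growth factor, and AXL, with TYRO3 and MERTK, makes up the TAM family, which binds GAS6 and protein S. In ccRCC, where *VHL* is usually lost, *TGFA* is known as a target of the hypoxia-inducible factors, and EGFR, MET and AXL have all been studied as drug targets.

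The libraries held 30212291 to 45362428 counts, and 3 counts, taken as the floor, came to between 0.0647 and 0.0961 CPM (counts scaled to the size of each library with the TMM method). The renal transcription factor *PAX8* was present in all 9 libraries. Its mean was 167 CPM in HK2, 164 in 786-O and 183 in the metastatic line. The 8 renal epithelium markers, *PAX8* among them, summed to 1558 to 1584 CPM in HK2. Their sum was 830 to 886 CPM in 786-O and 881 to 976 CPM in the metastatic line. *EPCAM* was at 73.9 CPM in HK2, 0.571 in 786-O and 8.88 in the metastatic line. *PAX2* went the other way, at 3.48, 24.9 and 10.7 CPM. Of 10 proximal tubule markers, 3 (*LRP2*, *SLC22A6* and *SLC22A8*) had 0 counts in every library of all lines, HK2 included. The other 7 were above the floor in every HK2 library. *GGT1* had a mean of 107 CPM in HK2, 80.3 in 786-O and 88.6 in the metastatic line. *MIOX* was higher in HK2, at 9.17 CPM against 0.443 and 0.251. *ANPEP* was lower there, at 1.74 CPM against 112 and 19.9. *CA9*, a marker of ccRCC, had 0 to 3 counts per library in the cancer lines. *VEGFA*, a target of the hypoxia response, had a mean of 19.3 CPM in HK2, 162 in 786-O and 331 in the metastatic line. Of the other ccRCC markers in the count table, *EGLN3* rose likewise, at 1.72, 49.9 and 128 CPM in the same order. *ANGPTL4* differed little, at 2.57, 3.11 and 3.26 CPM, and *PLIN2* was highest in HK2, at 55.7, 38.6 and 45.3 CPM. Of 4 leukocyte markers, *PTPRC* and *CD3E* were at 0 throughout, *CD14* had 2 to 21 counts per library, and *CD68* had a mean of 50.8 CPM in HK2, 26.9 in 786-O and 36.1 in the metastatic line. Of 4 fibroblast markers, *COL1A2* was at or near 0 in all lines, and the summed level of the list was 76.8 to 85.8 CPM in HK2, 278 to 347 CPM in 786-O, mostly *COL1A1*, and 303 to 306 CPM in the metastatic line, mostly *PDGFRB*. The sum was set by 1 gene in each cancer line. *COL1A1* had a mean of 53.5 CPM in HK2, 291 in 786-O and 16.5 in the metastatic line. *PDGFRB* had 4.98 CPM in HK2, 2.59 in 786-O and 282 in the metastatic line. *LUM* went the other way, with 22.5 CPM in HK2, 14.6 in 786-O and 5.49 in the metastatic line. *TGFA* and *GAS6* were higher in the lines with the higher sum, and the part of these markers in that was not tested.

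The 5 large differences from HK2 were in 4 ligands and in 1 receptor. *TGFA* had a mean of 21.7 CPM in HK2, 328 in 786-O and 438 in the metastatic line, and *GAS6* a mean of 26.0 CPM in HK2, 88.2 in 786-O and 141 in the metastatic line. *AREG* had 149 CPM in HK2, 7.85 in 786-O and 7.29 in the metastatic line, and *HBEGF* 60.9 CPM in HK2, 7.81 in 786-O and 11.9 in the metastatic line, whereas *EREG* did not pass the test in any comparison. The receptor with such a difference was *ERBB3*, with means of 4.65 CPM in HK2, 0.195 in 786-O and 0.0719 in the metastatic line. It entered the test through HK2, which held 550 of its 582 counts, so that its difference from HK2 is a description. *EGFR*, *ERBB2*, *MET* and *AXL* differed by less than 2-fold in every comparison. Whole cultures were sequenced, so that fewer cells with a transcript and less RNA per cell cannot be told apart.

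A gene was called at an adjusted p under 0.05 in edgeR's quasi-likelihood test over all genes tested. For 786-O against HK2, 8 of the 10 genes were called, 5 higher and 3 lower, where 84.2% of all genes tested were called. For the metastatic line against HK2 it was 7, 3 higher and 4 lower, beside 85.0%, and for the metastatic line against 786-O it was 7, 4 higher and 3 lower, beside 56.2%. The share of the 10 genes called lay near that of all genes in the comparisons with HK2. A call with at least a 2-fold difference was made for 5 genes in 786-O against HK2, beside 22.3% of all genes, for 5 genes in the metastatic line against HK2, beside 25.4%, and for 0 in the metastatic line against 786-O, beside 6.55%. The 5 genes were *ERBB3*, *TGFA*, *AREG*, *HBEGF* and *GAS6* in both, and these counts include *ERBB3*, which passed the filter on low counts through HK2 alone. The libraries of the lines did not overlap for 8, 7 and 7 of the genes in the 3 comparisons, in the same order, beside 85.5%, 85.0% and 61.7% of all genes tested. Where they did not overlap, the exact two-sided permutation test gave p = 0.1, the smallest that 3 libraries against 3 allow. Both comparisons with HK2 rest on the same 3 HK2 libraries, and the metastatic line and 786-O share their origin.

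**Figure D1:**
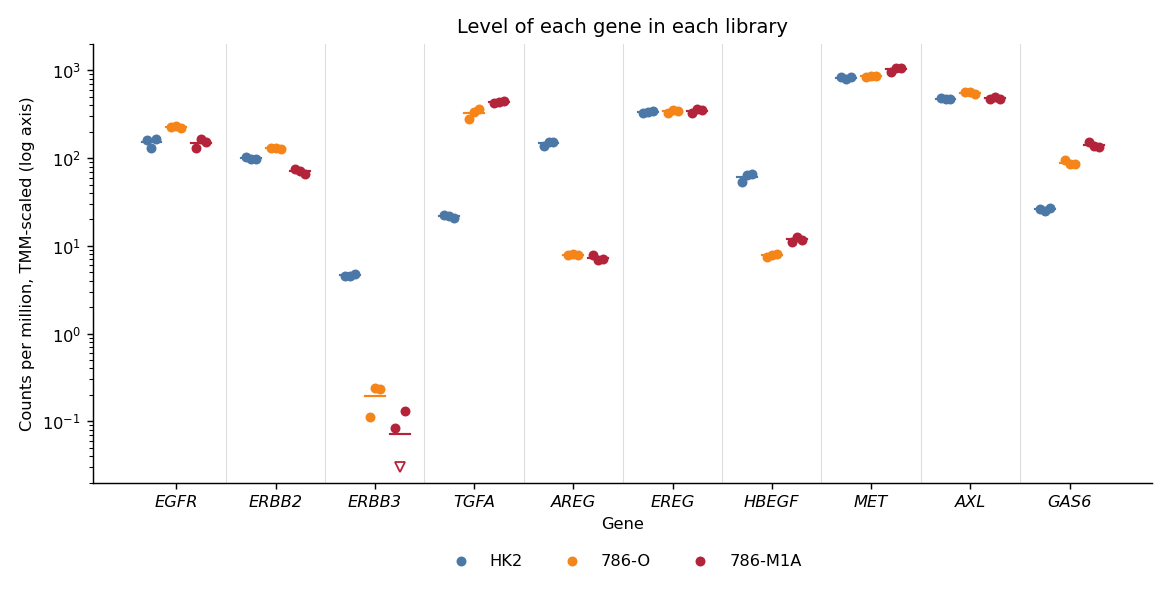
Level of the 10 genes in CPM (TMM-scaled, log axis) in each of the 9 libraries; points are libraries, short lines the means of the 3 libraries of a line, and the open triangle a library with 0 counts, drawn at the bottom. *TGFA* and *GAS6* sit lowest in HK2, *AREG*, *HBEGF* and *ERBB3* sit highest in HK2, and the libraries of *EREG* lie between 325 and 363 CPM in all lines.

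**Figure D2:**
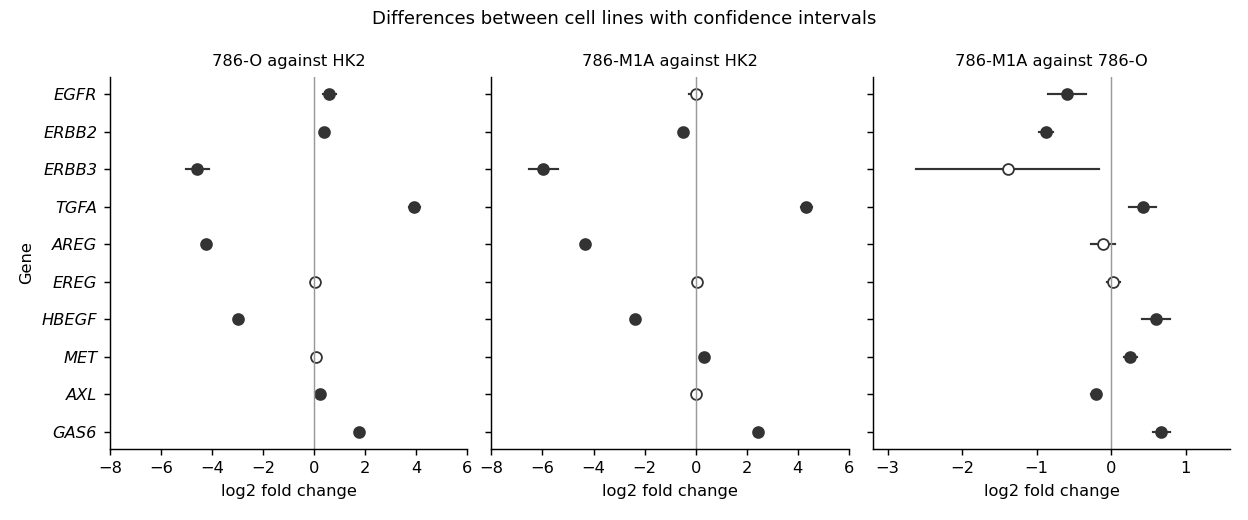
Log2 fold changes (points) with 95% intervals (lines) from the edgeR fit in the 3 comparisons of lines; filled points are called at an adjusted p under 0.05 and open points are not, and the right panel has a narrower axis. *TGFA* lies at 3.92 and 4.34 against HK2, *AREG* at -4.24 and -4.35, and between the cancer lines the interval of *ERBB3* is the widest.

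*EGFR* (NCBI gene 1956, chromosome 7, 55019017 to 55211628, plus strand, GRCh38) was higher in the primary tumour line than in either of the others. Its level was 161, 129 and 164 CPM in the 3 HK2 libraries, 228, 233 and 222 CPM in 786-O and 132, 167 and 153 CPM in the metastatic line. All 786-O libraries were above all others, and HK2 and the metastatic line overlapped. The log2 fold change of 786-O against HK2 was 0.59 (standard error 0.11, adjusted p = 0.00116), and that of the metastatic line against 786-O -0.60 (standard error 0.11, adjusted p = 0.00213). Between the metastatic line and HK2 it was -0.01, with a 95% interval of -0.26 to 0.25 (adjusted p = 0.955). The antisense gene *EGFR-AS1* shares 186 exon bases with *EGFR* and had 12 counts over all 9 libraries.

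*ERBB2* (NCBI gene 2064, chromosome 17, 39687914 to 39730426, plus strand), the partner that binds no ligand itself, followed the order 786-O, HK2, the metastatic line, and each step passed the test. It had 102, 96.8 and 98.4 CPM in HK2, 132, 131 and 126 in 786-O and 74.8, 71.0 and 66.3 in the metastatic line, and the libraries of no 2 lines overlapped. Its log2 fold change was 0.39 (standard error 0.04, adjusted p = 4.66e-08) for 786-O against HK2, -0.49 (standard error 0.04, adjusted p = 1.67e-09) for the metastatic line against HK2 and -0.87 (standard error 0.04, adjusted p = 5.93e-13) for the metastatic line against 786-O. The last of these was the largest called decrease between the cancer lines among the 10 genes, at 1.83-fold. *ERBB2* overlaps the antisense genes *MIEN1*, with 571 shared exon bases and 11374 counts over all libraries, and *PGAP3*, with 144 shared bases and 3371 counts. The libraries were stranded, but whether the strand was used in counting is not given in the sources used here, and without it such reads cannot be told apart.

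*ERBB3* (NCBI gene 2065, chromosome 12, 56076799 to 56103505, plus strand), the neuregulin receptor, was expressed at a low level in HK2 and was close to the floor in the cancer lines. HK2 libraries had 142, 184 and 224 counts, or 4.55, 4.56 and 4.83 CPM. There were 5, 9 and 10 counts in 786-O and 3, 0 and 5 in the metastatic line. Every HK2 library was above every library of the cancer lines, which overlapped each other. Against HK2 the log2 fold change was -4.57 (standard error 0.22, adjusted p = 3.10e-14) in 786-O and -5.97 (standard error 0.28, adjusted p = 1.36e-14) in the metastatic line, and -6.74 without the third library of the metastatic line and -5.38 without the second. The gene passed the filter of 50 counts only because of HK2, with a mean of 5.33 counts per library in the other lines, so it had to differ from HK2 and these p-values are no independent support. Between the metastatic line and 786-O it was -1.39 (standard error 0.59, adjusted p = 0.0505), with an interval of -2.62 to -0.16, and with 24 counts against 8 in all it did not pass the threshold. It passed in 6 of the 16 alternatives that kept the gene, among them the fits without the third library of the metastatic line (log2 fold change -2.17, adjusted p = 0.0193) and without the first 786-O library (-1.69, adjusted p = 0.0224). The adjusted p lay between 0.0193 and 0.212 over the 16. *ERBB4*, the fourth receptor of the family, had 0 to 3 counts per library in every line and was not tested.

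To compare genes with each other, counts were divided by the exon length of the gene and scaled to the same sum in each library (TPM). The 4 ERBB receptors together came to 92.4 ± 7.69 TPM (SD, n = 3) in HK2, 126 ± 2.87 TPM in 786-O and 71.8 ± 4.98 TPM in the metastatic line. Nearly all of this was *EGFR* and *ERBB2*, at 45.0 ± 6.17 and 45.5 ± 1.81 TPM in HK2, 66.8 ± 1.77 and 58.6 ± 1.24 in 786-O, and 41.7 ± 5.41 and 30.2 ± 1.48 in the metastatic line. *ERBB3* made up 2.04 ± 0.135% of the receptor transcripts in HK2, 0.0623 ± 0.0233% in 786-O and 0.0388 ± 0.0358% in the metastatic line. In 786-O the order of the means of *EGFR* and *ERBB2* depends on the length used, and in the others it does not. In HK2, however, the order per exon length differed between libraries. There *EGFR* was at 48.4, 37.9 and 48.8 TPM and *ERBB2* at 47.4, 43.8 and 45.2 TPM, so no order is established. With the longest transcript in place of all exons, *ERBB2* was at 66.6 TPM and *EGFR* at 50.7 TPM in HK2, and they were at 85.2 and 74.7 in 786-O and at 43.7 and 46.4 in the metastatic line.

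Among the EGFR ligands, *TGFA* (NCBI gene 7039, chromosome 2, 70447284 to 70554193, minus strand), which encodes TGF-alpha, had the largest increase of the 10 genes. It stood at 22.6, 22.0 and 20.7 CPM in HK2, 281, 336 and 366 in 786-O and 425, 442 and 448 in the metastatic line. The lines did not overlap, and 786-O had the widest spread among its libraries. Against HK2 its log2 fold change was 3.92 (standard error 0.10, adjusted p = 2.13e-11) in 786-O and 4.34 (standard error 0.10, adjusted p = 8.49e-12) in the metastatic line. Between the cancer lines it was 0.42 (standard error 0.08, adjusted p = 0.0012), a 1.34-fold higher level in the metastatic line.

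*AREG* (NCBI gene 374, chromosome 4, 74445136 to 74455005, plus strand), which encodes amphiregulin, went the other way. It was at 138, 154 and 154 CPM in HK2, 7.80, 7.97 and 7.78 in 786-O and 7.85, 6.92 and 7.11 in the metastatic line. HK2 was above both cancer lines in every library, and the cancer lines overlapped. The log2 fold change against HK2 was -4.24 (standard error 0.06, adjusted p = 1.33e-23) in 786-O and -4.35 (standard error 0.06, adjusted p = 1.21e-23) in the metastatic line, and between the metastatic line and 786-O it was -0.11 with an interval of -0.27 to 0.05 (adjusted p = 0.243).

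*EREG* (NCBI gene 2069, chromosome 4, 74365145 to 74388749, plus strand), the gene of epiregulin, was at a high level in all lines. Its libraries read 325, 337 and 347 CPM in HK2, 329.9, 352 and 342 in 786-O and 326, 363 and 356 in the metastatic line, and all 3 lines overlapped. The log2 fold change was 0.02 for 786-O against HK2 (interval -0.07 to 0.11), 0.05 for the metastatic line against HK2 (interval -0.04 to 0.14) and 0.03 for the metastatic line against 786-O (interval -0.06 to 0.12). The adjusted p-values were 0.655, 0.277 and 0.582. Without the first library of the metastatic line the comparison of the metastatic line with HK2 had a log2 fold change of 0.09 and an adjusted p of 0.0256.

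*EREG* and *AREG* are neighbours on chromosome 4 with 56.4 kb between them, in a group that also holds the ligand genes *EPGN* and *BTC*, 128 kb and 289.8 kb from *AREG*. The stretches just upstream of their annotated starts are shown because these neighbours had such unlike levels, and that of *TGFA* because this gene had the largest increase. Sequences are from RefSeq promoter windows of GRCh38.p14, which ran from 250 bases before a start to 50 after it and were given for 9 of the 10 genes, *ERBB3* being the other. They are written 5′ to 3′ on the strand of the gene and leave out annotated exons. *AREG* is at chr4:74444886-74445135 (plus strand), *EREG* at chr4:74364895-74365144 (plus strand) and *TGFA* at chr2:70553974-70554076 (minus strand). Capitals mark matches, on either strand. ACGTG and its variant GCGTG are cores of hypoxia response elements. TGACGTCA is the cAMP response element and TGACTCA the AP-1 element. TATAAA is the TATA box, and overlapping matches were counted apart.
AREG: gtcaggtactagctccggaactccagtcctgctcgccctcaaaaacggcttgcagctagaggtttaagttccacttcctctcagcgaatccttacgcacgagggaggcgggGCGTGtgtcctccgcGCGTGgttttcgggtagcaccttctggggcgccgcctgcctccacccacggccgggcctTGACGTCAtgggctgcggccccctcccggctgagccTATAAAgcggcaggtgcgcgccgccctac
EREG: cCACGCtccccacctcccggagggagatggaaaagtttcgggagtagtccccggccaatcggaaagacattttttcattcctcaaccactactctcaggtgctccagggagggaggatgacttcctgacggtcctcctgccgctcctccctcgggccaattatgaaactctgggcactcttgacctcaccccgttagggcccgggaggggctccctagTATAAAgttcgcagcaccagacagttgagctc
TGFA: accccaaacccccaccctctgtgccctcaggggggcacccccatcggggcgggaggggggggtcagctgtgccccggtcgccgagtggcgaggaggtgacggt
Both neighbours held a TATAAA, from position -29 relative to the start in *AREG* and -32 in *EREG*, as did 11.6% of the 34796 windows of 300 bases in the table. TGACGTCA was found in *AREG*, from position -65, in no window of the other 8 genes and in 1.84% of all windows. GCGTG was found 2 times in *AREG* and 1 time in *EREG*, and in 36.4% of all windows. ACGTG occurred 1 time in the window of *EREG*, after the start, and in 21.4% of all windows. TGACTCA was in neither and in 4.96% of all. The stretch of *TGFA*, which ends 147 bases before its start, held none of these letters, and a second annotated window of *TGFA* held GCGTG 1 time. These are matches of letters only, and no binding was measured.

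*HBEGF* (NCBI gene 1839, chromosome 5, 140332843 to 140346603, minus strand), which encodes heparin-binding EGF-like growth factor, fell with *AREG* against HK2 but differed between the cancer lines. It was at 53.6, 63.4 and 65.8 CPM in HK2, 7.53, 7.89 and 8.01 in 786-O and 11.2, 12.7 and 11.7 in the metastatic line. None of the lines overlapped, and the metastatic line lay between HK2 and 786-O. Its log2 fold change was -2.97 (standard error 0.08, adjusted p = 2.43e-17) for 786-O against HK2, -2.36 (standard error 0.07, adjusted p = 3.40e-16) for the metastatic line against HK2 and 0.60 (standard error 0.09, adjusted p = 1.34e-05) for the metastatic line against 786-O.

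Per length, the make-up of the EGFR ligands changed more than their sum. The 7 ligands of EGFR (*TGFA*, *AREG*, *EREG*, *HBEGF*, *EGF*, *BTC* and *EPGN*) summed to 840.2 ± 35.4 TPM (SD, n = 3) in HK2, 629 ± 53.2 TPM in 786-O and 699.5 ± 35.0 TPM in the metastatic line. In HK2 *AREG* was the leading ligand with 51.0 ± 0.537% of the sum, before *EREG* with 33.2 ± 0.831%, *HBEGF* with 11.5 ± 0.652% and *TGFA* with 2.50 ± 0.228%. In 786-O *TGFA* held 49.4 ± 2.86% and *EREG* 44.6 ± 2.44%, and in the metastatic line they held 56.2 ± 0.715% and 38.4 ± 0.887%. The share of *AREG* was 3.57 ± 0.274% and 2.80 ± 0.292% in these lines. In the first 786-O library *EREG* and *TGFA* were at 267 and 265 TPM, so that their order there differed from that in the other two libraries of this line. With the length of the longest transcript, *TGFA* held 2.32%, 48.4% and 55.1% of the sum in HK2, 786-O and the metastatic line.

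**Figure D3:**
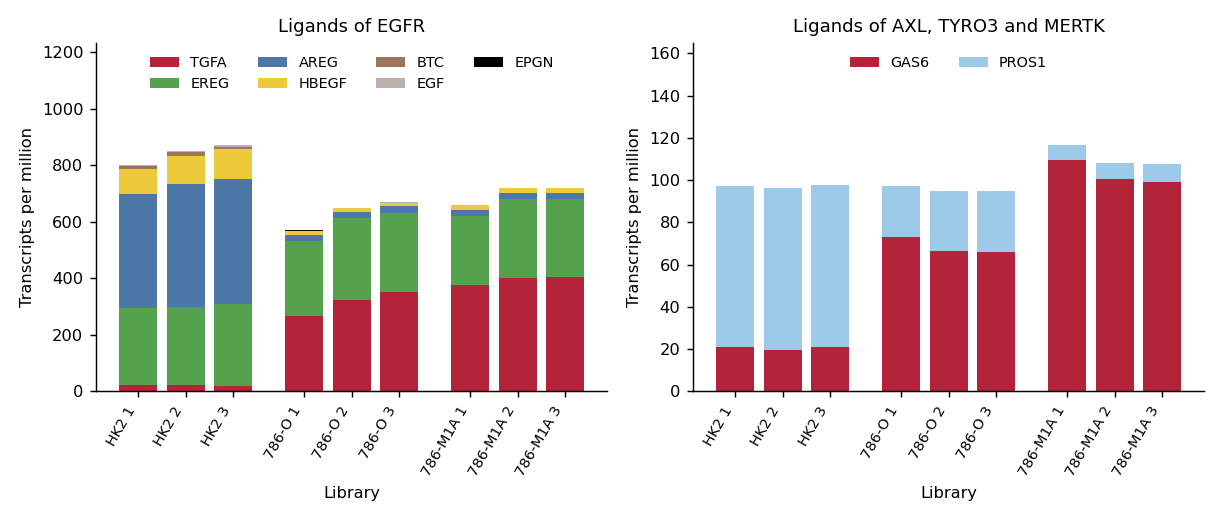
TPM of the 7 ligands of EGFR (left) and of *GAS6* and *PROS1*, the ligands of the TAM family as a whole (right), stacked in each of the 9 libraries; bars start at 0. *AREG* fills most of the left bars in HK2 and *TGFA* with *EREG* nearly all of them in the cancer lines, and the share of *GAS6* on the right is 21.1 ± 0.778%, 71.6 ± 3.05% and 92.8 ± 1.09% in HK2, 786-O and the metastatic line.

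The other genes of the EGF family came from a list of 7 ligands and *ERBB4*, of which 3 were tested. They were *EGF*, *BTC* and *NRG1*. *BTC* passed the filter through HK2 alone, with 731 of its 836 counts there, so no count or median is given for this list. Over all genes tested the median log2 fold change was -0.01 in 786-O and -0.01 in the metastatic line against HK2 and 0.01 between the cancer lines. *EGF*, the founding ligand of the family, was at 6.88 ± 0.300 CPM in HK2, 2.95 ± 0.128 in 786-O and 1.04 ± 0.123 in the metastatic line (SD, n = 3), with a log2 difference of -1.49 (standard error 0.14, adjusted p = 7.99e-09) between the cancer lines. *BTC*, which encodes betacellulin, was at 6.24 ± 0.503 CPM in HK2, 0.631 ± 0.124 in 786-O and 0.232 ± 0.00817 in the metastatic line, with 22 to 34 counts per library in 786-O and 8 to 9 in the metastatic line, and no test is given for it. *NRG1*, a neuregulin and thus a ligand of ERBB3 and ERBB4, was at 192 ± 6.67 CPM in HK2, 87.2 ± 1.05 in 786-O and 97.9 ± 2.62 in the metastatic line, and its log2 fold change against HK2 was -1.14 (standard error 0.04, adjusted p = 6.86e-17) and -0.97 (standard error 0.04, adjusted p = 8.97e-16). *EPGN* had 1 to 6 counts per library, *NRG3* and *NRG4* at most 5, and *NRG2* 30 to 41 in 786-O and at most 8 elsewhere.

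The genes for shedding of EGF-family ligands rose more often than they fell. Of 9 listed, 8 were tested, and against HK2 6 were higher and 2 lower in each cancer line, all 8 being called where 84.2% and 85.0% of all genes were, with a median log2 fold change of 0.82 in 786-O and 0.94 in the metastatic line. Of the 8, 3 in 786-O and 4 in the metastatic line were at least 2-fold higher, beside 9.18% and 10.5% of all genes. *ADAM9*, a metalloprotease of the cell surface, was at 22.8 ± 0.288 CPM in HK2, 503 ± 14.3 in 786-O and 466 ± 24.7 in the metastatic line, a log2 difference of 4.47 (standard error 0.05, adjusted p = 2.83e-25) and 4.36 (standard error 0.05, adjusted p = 3.85e-25). *RHBDF2*, which encodes the partner iRhom2 that carries ADAM17 to the surface, had 26.5 ± 0.396 CPM in HK2, 144 ± 4.73 in 786-O and 169 ± 8.29 in the metastatic line. *ADAM12*, another metalloprotease, had 36.5 ± 2.11 CPM in HK2, 107 ± 1.05 in 786-O and 103 ± 6.15 in the metastatic line. All 3 were higher in every library of the cancer lines than in HK2. *ADAM17*, the main sheddase of TGF-alpha, amphiregulin and HB-EGF, was lower, at 87.9 ± 2.61 CPM in HK2, 68.6 ± 2.36 in 786-O and 63.9 ± 3.19 in the metastatic line and with a log2 difference of -0.36 (standard error 0.04, adjusted p = 2.00e-07) and -0.46 (standard error 0.04, adjusted p = 4.36e-09) against HK2. Between the cancer lines 2 of the 8 were higher and 2 lower in the metastatic line, beside 29.0% and 27.1% of all genes tested. *TIMP3*, an inhibitor of ADAM17, had 0 to 2 counts per library.

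*MET* (NCBI gene 4233, chromosome 7, 116672196 to 116798377, plus strand) had the highest level of the 10 genes in every line, on the CPM scale and per exon length. Its level was 836, 794 and 839 CPM in HK2, 837, 872 and 871 in 786-O and 956, 1062 and 1064 in the metastatic line. HK2 and 786-O overlapped, and the libraries of the metastatic line were above both. Its log2 fold change of the metastatic line was 0.32 (standard error 0.04, adjusted p = 2.07e-07) against HK2 and 0.26 (standard error 0.04, adjusted p = 1.31e-05) against 786-O. Between 786-O and HK2 it was 0.06 with an interval of -0.02 to 0.15 (adjusted p = 0.147), and this comparison was called without a filter on low counts (adjusted p = 0.0321). Per length *MET* was at 539.6, 557 and 627 TPM in HK2, 786-O and the metastatic line. With the length of the longest transcript it was at 397 TPM in HK2, where *AREG* was at 399 TPM.

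Its ligand *HGF* had 0 counts in all 9 libraries, which allows a level of up to 0.0647 to 0.0961 CPM by counting error alone. Of 7 genes listed for the activation of HGF, 3 were tested and all 3 were lower than in HK2 in both cancer lines, with a median log2 fold change of -2.62 and -1.96, where 42.5% and 42.9% of all genes tested were called lower. They were *PLAU*, which encodes a protease able to cut pro-HGF, and *SPINT1* and *SPINT2*, which encode inhibitors of HGF-activating proteases. *SPINT1* libraries were at 44.1 to 45.9 CPM in HK2, 6.55 to 6.95 in 786-O and 0.779 to 0.810 in the metastatic line, a log2 difference of -5.82 (standard error 0.08, adjusted p = 2.43e-23) for the metastatic line against HK2. *SPINT2* was at 278 ± 13.0 CPM in HK2, 75.8 ± 2.48 in 786-O and 147 ± 8.69 in the metastatic line. *PLAU* was at 278 ± 4.63 CPM in HK2, 45.3 ± 2.45 in 786-O and 71.4 ± 2.90 in the metastatic line. Between the cancer lines *PLAU* and *SPINT2* were higher in the metastatic line, with log2 fold changes of 0.66 and 0.95, and *SPINT1* was lower (-3.08). *HPN*, which encodes the protease hepsin, had 49 to 86 counts per library in HK2 and 0 to 1 in the cancer lines, and was below the filter. The receptor *MST1R*, related to MET, had at most 8 counts per library, and its ligand gene *MST1* had 20 to 43.

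*AXL* (NCBI gene 558, chromosome 19, 41219223 to 41261766, plus strand) varied little. It was at 482, 466 and 468 CPM in HK2, 563, 564 and 534 in 786-O and 476, 493 and 472 in the metastatic line. The 786-O libraries were above all others, whereas those of HK2 and the metastatic line overlapped. The log2 fold change was 0.23 (standard error 0.03, adjusted p = 2.93e-06) for 786-O against HK2 and -0.21 (standard error 0.03, adjusted p = 3.35e-05) for the metastatic line against 786-O, and 0.02 for the metastatic line against HK2 (interval -0.05 to 0.10, adjusted p = 0.503). *EGFR* and *AXL* shared the order of the lines, with 786-O first and no difference established between the others.

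*GAS6* (NCBI gene 2621, chromosome 13, 113820549 to 113864076, minus strand), which encodes the vitamin K-dependent ligand of the TAM receptors, rose at each step. Its level was 26.1, 25.1 and 26.9 CPM in HK2, 95.0, 85.1 and 84.7 in 786-O and 152, 136 and 134 in the metastatic line, and the lines did not overlap. Its log2 fold change was 1.76 (standard error 0.06, adjusted p = 4.98e-16) for 786-O against HK2, 2.43 (standard error 0.06, adjusted p = 2.39e-18) for the metastatic line against HK2 and 0.67 (standard error 0.05, adjusted p = 2.11e-09) for the metastatic line against 786-O. The last was the largest called increase between the cancer lines among the 10 genes, at 1.59-fold. The antisense gene *GAS6-AS1* shares 421 exon bases with it and had 92 counts over all libraries.

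Of 6 other genes of the TAM and MET families, 3 were tested. *PROS1*, which encodes protein S, the other ligand of the family, went against *GAS6*. Its libraries were at 83.8 to 86.8 CPM in HK2, 27.6 to 32.3 in 786-O and 8.54 to 10.5 in the metastatic line, and the log2 fold change was -1.48 (standard error 0.06, adjusted p = 5.02e-15) and -3.17 (standard error 0.07, adjusted p = 2.43e-19) against HK2. Per exon length the sum of both ligands was 97.1 ± 0.741 TPM in HK2, 95.8 ± 1.39 in 786-O and 111 ± 4.87 in the metastatic line. *GAS6* made up 21.1 ± 0.778%, 71.6 ± 3.05% and 92.8 ± 1.09% of it. With the length of the longest transcript the sum was 115, 137 and 171 TPM, and the share of *GAS6* 28.4%, 78.9% and 95.1%. How the sum differed between the lines thus depends on the length used, whereas the share of *GAS6* rose with either. The sum is over ligands of the family and is not one of AXL ligands, and binding to any receptor was not measured. Among the receptors *AXL* made up 94.3 ± 0.321%, 93.7 ± 0.255% and 96.1 ± 0.0851% of the TAM transcripts per length. *MERTK* was at 14.8 ± 1.30 CPM in HK2, 7.70 ± 0.147 in 786-O and 1.48 ± 0.0785 in the metastatic line, a log2 difference of -2.38 (standard error 0.11, adjusted p = 1.60e-13) between the cancer lines. *TYRO3* was at 21.3 ± 0.662 CPM in HK2, 57.4 ± 1.79 in 786-O and 37.4 ± 0.741 in the metastatic line, with 1.43 (standard error 0.05, adjusted p = 3.29e-17) for 786-O against HK2. The median log2 fold change of the 3 genes was -0.94 for 786-O against HK2, -3.17 for the metastatic line against HK2 and -1.69 between the cancer lines.

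GAS6 and protein S need carboxylation that depends on vitamin K. Of 5 genes listed for it and for the processing of precursors, 2 were higher and 1 lower in 786-O than in HK2, and 4 were higher and 1 lower in the metastatic line, beside 84.2% and 85.0% of all genes called. *FURIN*, which encodes a convertase that cuts precursor proteins, was the only listed gene past 2-fold, at 89.6 ± 4.34 CPM in HK2, 227 ± 10.6 in 786-O and 177 ± 5.88 in the metastatic line and with a log2 difference of 1.34 (standard error 0.04, adjusted p = 4.19e-17) for 786-O against HK2. *GGCX*, which encodes the carboxylase itself, had 61.2 ± 0.922 CPM in HK2, 50.2 ± 1.16 in 786-O and 47.9 ± 1.29 in the metastatic line, a log2 fold change of -0.29 and -0.35 against HK2.

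Inhibitors and turnover genes of ERBB and MET receptors moved in both directions. Of 12 tested, 4 were higher and 5 lower in 786-O than in HK2, and 4 were higher and 6 lower in the metastatic line, with a median log2 fold change of -0.03 and -0.08. The 9 and 10 called of 12 stand beside 84.2% and 85.0% of all genes. *ERRFI1*, which encodes the EGFR inhibitor MIG6, was at 81.3 ± 1.69 CPM in HK2, 301 ± 23.0 in 786-O and 428 ± 6.72 in the metastatic line, so that it rose by 1.89 and 2.40 on the log2 scale (adjusted p = 3.42e-19 and 6.50e-21) and by 0.51 between the cancer lines. *LRIG3* and *LRIG1*, which encode membrane proteins of a family that regulates ERBB receptors, were lower against HK2. *LRIG3* had 45.2 ± 1.44 CPM in HK2, 15.0 ± 0.375 in 786-O and 10.5 ± 0.701 in the metastatic line. *LRIG1* had 7.39 ± 0.223 CPM in HK2, 3.59 ± 0.228 in 786-O and 6.03 ± 0.736 in the metastatic line. Between the cancer lines 3 of the 12 were higher and 3 lower in the metastatic line, beside 29.0% and 27.1% of all genes tested. None of the 12 passed 2-fold there, beside 6.55% of all genes.

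The adaptors and the RAS, PI3K and ERK core mostly differed by small amounts. Of 25 tested, 14 were higher and 10 lower in 786-O than in HK2, and 13 were higher and 9 lower in the metastatic line, with medians of 0.14 and 0.15, where 84.2% and 85.0% of all genes were called. At 2-fold it was 3 in 786-O and 4 in the metastatic line, beside 22.3% and 25.4% of all genes. *GAB1*, the docking protein used by MET and EGFR, was at 20.3 ± 0.795 CPM in HK2, 8.44 ± 0.281 in 786-O and 4.13 ± 0.237 in the metastatic line, and its log2 fold change was -1.26 (standard error 0.06, adjusted p = 8.47e-14), -2.29 (standard error 0.07, adjusted p = 2.29e-17) and -1.03 (standard error 0.08, adjusted p = 8.92e-10) in the comparisons with HK2 and between the cancer lines. *PIK3R3*, a regulatory subunit of PI3K, was at 53.8 ± 1.19 CPM in HK2, 35.6 ± 0.519 in 786-O and 20.8 ± 2.50 in the metastatic line. *PIK3R1*, another, went the opposite way against HK2, at 19.8 ± 0.822 CPM in HK2, 43.8 ± 1.17 in 786-O and 44.4 ± 3.42 in the metastatic line. *HRAS*, a RAS gene, was at 14.5 ± 1.25 CPM in HK2, 38.4 ± 2.83 in 786-O and 43.9 ± 2.78 in the metastatic line, with a log2 fold change of 1.40 and 1.59 against HK2. *GAB1* was the only gene of the 25 past 2-fold between the cancer lines, beside 6.55% of all genes.

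Genes known to respond to ERK signalling were more often lower than higher against HK2. Of 19 tested, 12 were lower and 6 higher in 786-O than in HK2, and 12 were lower and 7 higher in the metastatic line, with a median log2 fold change of -0.99 and -0.67. At least 2-fold lower were 9 in each line, beside 13.1% and 14.9% of all genes. At least 2-fold higher were 3 in each line, beside 9.18% and 10.5% of all genes. Those called, 18 and 19 of the 19, stand beside 84.2% and 85.0%. These counts and the medians include *DUSP4*, which had 7 of its 877 counts in HK2. It passed the filter on low counts through the cancer lines alone, so it had to be higher there. Its place among the higher genes is a description. The feedback phosphatase *DUSP6* was at 31.7 ± 1.72 CPM in HK2, 5.12 ± 0.636 in 786-O and 5.10 ± 0.321 in the metastatic line, a log2 difference of -2.64 (standard error 0.08, adjusted p = 5.52e-18) and -2.64 (standard error 0.08, adjusted p = 6.64e-18) against HK2. The feedback inhibitor *SPRY4* was at 10.2 ± 0.423 CPM in HK2, 1.90 ± 0.328 in 786-O and 2.33 ± 0.157 in the metastatic line. The transcription factor *ETV4* was at 26.1 ± 0.453 CPM in HK2, 3.58 ± 0.246 in 786-O and 4.39 ± 0.408 in the metastatic line, so that all 3 were lower in both cancer lines. *ETV1*, of the same family, had 74.8 ± 1.70 CPM in HK2, 24.9 ± 3.15 in 786-O and 3.09 ± 0.454 in the metastatic line and was 8.01-fold lower in the metastatic line than in 786-O. On the other side, the phosphatase *DUSP4* had 1 to 4 counts per library in HK2 and 3.96 ± 0.614 CPM in 786-O and 3.33 ± 0.124 CPM in the metastatic line. *CCND1*, which encodes cyclin D1, was at 98.8 ± 4.77 CPM in HK2, 388 ± 13.8 in 786-O and 492 ± 31.0 in the metastatic line, a log2 difference of 1.97 (standard error 0.05, adjusted p = 1.77e-18) and 2.31 (standard error 0.05, adjusted p = 1.38e-19). *FOSL1*, an AP-1 subunit, was 2.15-fold higher in the metastatic line than in HK2, and the ephrin receptor *EPHA4* 2.01-fold higher in 786-O. Between the cancer lines 8 of the 19 were higher and 5 lower in the metastatic line, beside 29.0% and 27.1% of all genes tested. Phosphorylation was not measured in these libraries.

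**Figure D4:**
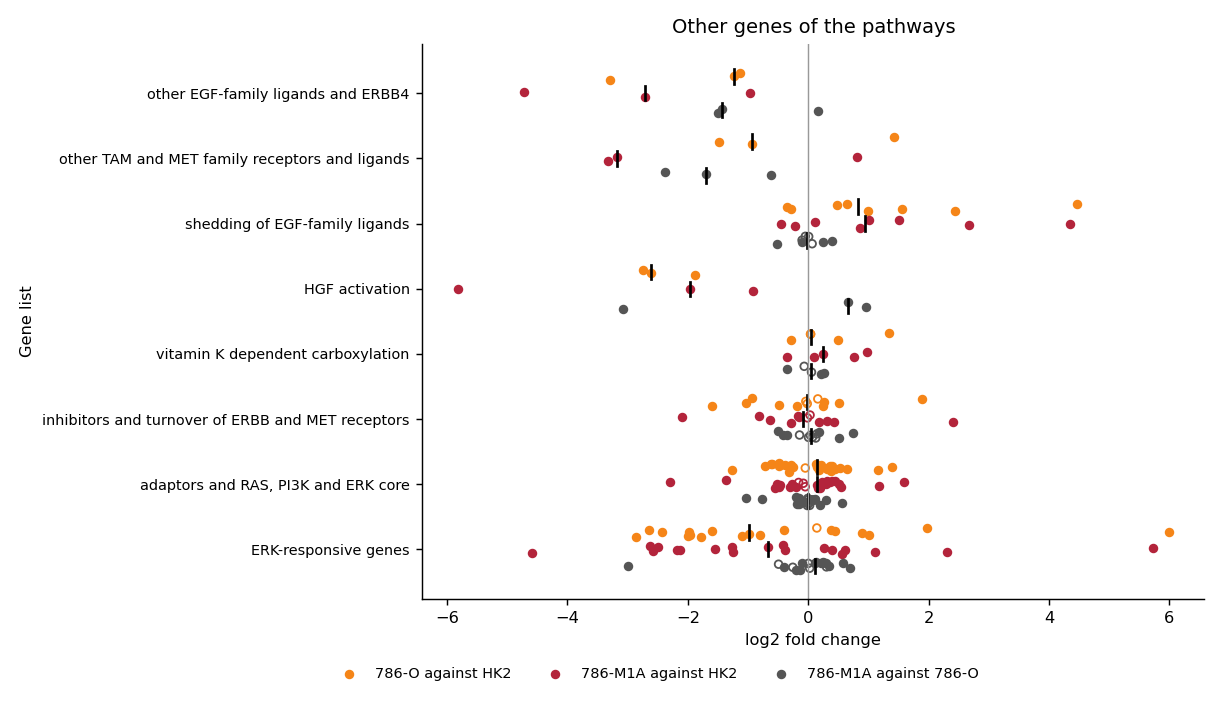
Log2 fold changes of the tested genes in 8 lists of related genes, by comparison (colours). Filled points are called at an adjusted p under 0.05 and open points are not. Black bars are the medians of a list, with *BTC* included among the other EGF-family genes and *DUSP4* among the ERK-responsive genes. Against HK2 the shedding genes sit mostly to the right, the genes of HGF activation to the left, and the adaptor and core genes near 0.

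Ranked per length among all genes tested, *MET* stood at percentile 98.0 in HK2, 98.1 in 786-O and 98.4 in the metastatic line, and *AXL* at 97.3, 97.7 and 96.9. *TGFA* went from percentile 41.9 in HK2 to 95.4 and 96.7, and *AREG* from 97.2 to 45.6 and 43.9. *EGFR* was at 63.7, 73.7 and 63.5. *ERBB3* was the lowest of the 10 genes in every line, at percentile 5.24, 1.83 and 1.82.

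For 4 of the genes, the 3 tested genes with the most similar profile were found by the Euclidean distance between log2 CPM values centred on their mean over the 9 libraries, which all points share. They were *APOL1* (0.293), *SYNPO* (0.466), *CDK15* (0.470) for *TGFA*, *ACACA* (0.187), *HIPK2* (0.208), *SPATA13* (0.210) for *EGFR*, *SMC2* (0.0758), *EYA3* (0.0791), *TUT7* (0.0904) for *MET* and *ZBED1* (0.0773), *EXOC7* (0.0878), *PVR* (0.102) for *AXL*, where the value in parentheses is that distance in log2 units. *APOL1*, the nearest to *TGFA*, had a log2 fold change of 4.04, 4.53 and 0.49 in 786-O against HK2, the metastatic line against HK2 and the metastatic line against 786-O.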

How the data were processed

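The data are RNA-seq counts of 9 libraries (TruSeq Stranded mRNA, NextSeq 500), 3 for each of HK2, 786-O and its metastatic derivative, grouped by the titles of the samples. The authors deposited whole-number read counts per NCBI gene, made with featureCounts of the Rsubread package on GRCh38, without normalization or filter. The annotation version and the strand setting are not given in the sources used here. The members and lists were chosen with earlier results of these data known.

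Symbols matched 27745 of 28395 gene IDs in RefSeq, and exon lengths came from GENCODE 44 for 25681. Counts were scaled by TMM in edgeR 4.0.16 (R 4.3.3), and 12695 genes, those averaging 50 counts or more per library, entered its robust quasi-likelihood test. A single fit had a coefficient for each line, with Benjamini-Hochberg adjustment over all genes tested and a threshold of 0.05. The F statistic of each log2 fold change gave its standard error, and intervals are 95%. The distance between profiles used log2 CPM with a prior count of 2. TPM were computed from counts and the length of all exons of a gene. The common biological coefficient of variation was 3.94%. Totals of 30212291 to 45362428 counts set the precision, and floors cover counting error only.

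The genes named besides the 10 are all those in the lists of EGF-family ligands and of TAM and MET relatives, and from each other list those called with at least a 2-fold difference, at most the 3 largest in each direction per comparison. The 3 genes with the nearest profiles to *EGFR*, *TGFA*, *MET* and *AXL* are also named. Cell type markers, *VEGFA*, *ADAM17*, *TIMP3*, *GGCX*, *HPN* and the overlapping genes fall outside this rule and were chosen after their values were seen. Alternatives were RLE and upper-quartile scaling, DESeq2 1.42.0, limma 3.58.1 with voom weights, no filter, at least 10 counts in every library, a block for the replicate number, omission of each library in turn, and fits restricted to both lines of a comparison. VSN, which the study used, was not used here.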

Additional observations from a re-analysis of the deposited data

How the results depend on the processing

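Over 507 refits of the 30 log2 fold changes of the 10 genes, 489 kept their direction and their side of the threshold, 8 came to pass it, 10 changed sign without passing it before or after, and none lost a call. The 10 were in 5 differences near 0. With upper-quartile scaling *EREG* came to -0.022 in 786-O and -0.0081 in the metastatic line against HK2, and *AXL* to -0.032 in the latter comparison, where *EGFR* came to 0.012 with no filter. Leaving out single libraries gave *EREG* a range of -0.0030 to 0.044 in 786-O against HK2 and of -0.0026 to 0.075 between the cancer lines, and *EGFR* a range of -0.118 to 0.079 in the metastatic line against HK2. The 8 concerned 3 results. *ERBB3* in the metastatic line against 786-O passed with DESeq2 (adjusted p = 0.0358), voom (0.0226), no filter (0.0340), upper-quartile scaling (0.0458) and without the third library of the metastatic line (0.0193) or the first of 786-O (0.0224), and it was left out where at least 10 counts were required in every library. *MET* in 786-O against HK2 passed with no filter, and *EREG* in the metastatic line against HK2 without its first library. Without a filter on low counts, 5410, 5895 and 1592 of all genes were called with at least 2-fold in 786-O against HK2, the metastatic line against HK2 and the metastatic line against 786-O, where the filter left 2830, 3219 and 832, since more genes were tested. Lengths of the longest transcript moved levels per length and put *ERBB2* above *EGFR* in 786-O, where all exons gave the reverse order. With the replicate number as a replicate block, 10680, 10804 and 7179 genes were called in these comparisons, against 10691, 10786 and 7132 without it, and no call among the 10 genes changed. Same-numbered libraries of the metastatic line and 786-O deviated from their group means with correlations of 0.215, 0.0739 and 0.110 across genes, so the numbers were not taken to pair the libraries. Between lines, a difference in a gene with few counts, such as *ERBB3* in the cancer lines, was limited by depth.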
